A study of Cochliomyia hominivorax with 18 samples.

Results

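Among 22420 predicted transcripts of the New World screwworm midgut, 144 were abundant in untreated adults and moderately higher there than in untreated larvae. They were chosen by their control levels alone, in CPM, a transcript's counts scaled to a common library total. A transcript belonged if its mean over the 3 adult control libraries was at least 50 CPM and if that mean was at least 4 times, and less than 16 times, the mean of the 3 larval control libraries, with 0.1 CPM added to both. Of the 2301 transcripts at 50 CPM or more in adult controls, 200 reached a ratio of 16 or more and 1957 stayed under 4. The deposited table pairs no gene names with its IDs, so the 144 are reported by ID, no role can be given to any of them, and the midgut could not be checked against its marker genes.

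Poly(A)-selected RNA was sequenced from midguts of production flies of Cochliomyia hominivorax, whose larvae feed in the wounds of living warm-blooded animals. Larvae and adults were sampled before (control), during (on-Tc) and after (post-Tc) rearing with the antibiotic tetracycline, with 3 libraries in each of the 6 groups. All groups share the tissue and the description as production flies; strain, sex, age, tetracycline dose and the number of guts per library are not given in the labels. Whether libraries of a group stem from different animals is not stated; the p-values therefore cover variation among libraries only, and that variation may be technical. Because each treatment group was collected in its own phase of the rearing, time of collection and treatment cannot be told apart. Library totals ran from 19158409 to 79783813 counts, and each of the 144 transcripts had counts in all 18 libraries.

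The midgut is where a fly secretes digestive enzymes and takes up nutrients. In Drosophila the larval midgut epithelium is removed at metamorphosis and an adult epithelium is built from progenitor cells, so larval and adult guts are made of different cells as well as exposed to different food. In RNA from whole midguts, fewer cells of a type and less RNA per cell cannot be told apart.

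In adult controls the 144 transcripts spanned 50.01 to 18988 CPM with a median of 188 CPM. In larval controls they spanned 3.80 to 4246 CPM with a median of 25.04 CPM. These levels and the ratio between them, with a median of 6.17, are what the rule selected and are not evidence of a stage difference. At the 50 CPM bound, g11786.t1 lay just inside at 50.01 CPM and g482.t1 just outside at 49.6 CPM. At the ratio of 4, g9369.t1 lay inside at 4.03 and g7726.t1 outside at 3.96. At the ratio of 16, g4301.t1 lay inside at 15.9 and g14794.t1 outside at 16.5. Transcripts on either side of a bound thus had nearly the same value of the measure that parts them. The SD of the adult controls was 12.9 CPM for g11786.t1 and 77.4 CPM for g4301.t1, whose adult control mean was 115 CPM.

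Membership leaned on single control libraries. Leaving out a control library gave between 128 and 148 members, of which 113 to 126 were among the 144. Only 62 of the 144 met the rule with each of the 6 control libraries left out in turn. An example is g12981.t1, with 1.58 CPM in adult control 1, 1.95 CPM in adult control 2 and 759 CPM in adult control 3, a mean carried by a single library. Another is g13700.t1, at 0.116, 28.4 and 177 CPM in adult controls 1 to 3.

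As a share of the library, the 144 transcripts took 7.36% ± 0.531 (SD, n = 3) of counts in adult controls, 5.98% ± 0.126 (SD, n = 3) in on-Tc adults and 6.08% ± 0.208 (SD, n = 3) in post-Tc adults. In larvae the shares were 1.21% ± 0.350, 1.02% ± 0.424 and 1.17% ± 0.206 (SD, n = 3 each) in the same order. Every adult library lay above every larval library in this share, including the 12 libraries the rule did not use. A single transcript, g5459.t1, took 3.26% of adult control 1, against 0.359% to 1.36% of the other adult libraries. Without it the share was 5.46% ± 1.003 (SD, n = 3) in adult controls, 5.16% ± 0.473 on-Tc and 5.17% ± 0.308 post-Tc.

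**Figure D1:**
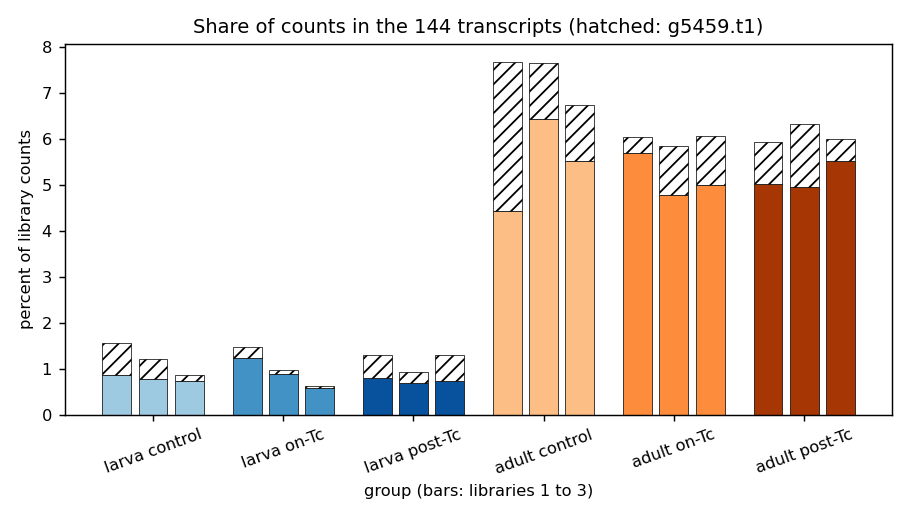
Percent of each library's counts (y axis) that fell in the 144 transcripts, for 3 libraries in each of 6 groups (x axis); the hatched part of a bar is g5459.t1. Adult libraries lie between 5.83% and 7.68%, larval libraries between 0.628% and 1.57%.

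Among the larval libraries, on-Tc 1 stood apart for these transcripts. The median of the 144 was 38.6 CPM in that library and 20.6 to 25.9 CPM in the other 8 larval libraries. It held the highest larval value for 42 of the 144 (29.2%). Among the 12058 transcripts with at least 10 counts in 3 or more tetracycline libraries it did so for 17.7%. This count ran over all larval libraries, including the controls that chose the members, so the comparison of shares is not independent of the rule. For some of the on-Tc results that follow, though not for all, values without larval on-Tc 1 are given as well.

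The tetracycline libraries, which had no part in the choice, allow the stage difference to be tested in libraries other than those it was selected on. The 12 on-Tc and post-Tc libraries were therefore fitted on their own. Most of the 144 were again higher in adults. For on-Tc adults against on-Tc larvae, 103 of 144 passed edgeR's quasi-likelihood test as higher in adults (FDR under 0.05 over 11793 transcripts), where 12.4% of all transcripts tested did so. For post-Tc adults against post-Tc larvae, 107 of 144 passed as higher, where 15.9% of all did so. In each comparison 1 member passed as lower in adults, where 12.6% and 14.4% of all transcripts passed in that direction.

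The rule bounded the ratio in the controls alone, so a wider range in other libraries follows from the choice and is no finding. The median fitted difference was 5.59-fold on-Tc and 5.59-fold post-Tc, or 2.48 on the log2 scale in each, beside log2 medians of -0.00 and -0.05 over all transcripts tested. From the lower to the upper quartile the members spanned 1.85 to 3.13 on the log2 scale on-Tc and 1.94 to 3.33 post-Tc. The ratio of group means that the rule uses had a median of 5.11 on-Tc and 5.58 post-Tc. It lay from 4 to below 16 for 79 members on-Tc and 85 post-Tc. The ratio was under 4 for 52 and 42 members, and 16 or more for 13 and 17. It was under 1, so higher in larvae, for 4 members in each treatment. Without larval on-Tc 1, the on-Tc ratio had a median of 6.53 and lay from 4 to below 16 for 88 members, under 4 for 39 and at 16 or more for 17.

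The separation of single libraries was also counted. The 3 on-Tc adults lay above the 3 on-Tc larvae in CPM for 112 members (77.8%), against 17.6% of all transcripts tested. The 3 post-Tc adults lay above the 3 post-Tc larvae for 123 members (85.4%), against 22.9% of all. For 95 members all 6 treated adult libraries lay above all 6 treated larval libraries, a pattern seen in 10.1% of all transcripts tested. Without larval on-Tc 1 the on-Tc count was 129, against 24.2% of all, and the count over all treated libraries was 107, against 12.3% of all; leaving out a library makes separation easier for every transcript.

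Of the 144, 89 passed as higher in adults in both treatments, where 8.87% of all transcripts tested did so. Another 13 passed as higher on-Tc with no call post-Tc, and 18 post-Tc with no call on-Tc. A further 22 passed in neither, of which 19 had a positive fitted difference in both. For these 13, 18 and 22 members the shares over all transcripts were not computed, so nothing is read from the counts. The members that did not pass were smaller in difference and less precise: their median difference was 2.40-fold on-Tc and 2.82-fold post-Tc, and their median SE was 0.75 and 0.76 on the log2 scale, against 0.49 and 0.46 for members that passed. Grouped by how they met the rule in the controls, a grouping made after results were seen and given as a description, the counts were as follows. Of the 62 that met the rule without any given control library, 58 passed as higher in both treatments and 0 had a negative difference. Of the other 82, 31 passed in both, and 4 on-Tc and 4 post-Tc had a negative difference. The grouping uses the control values that chose the members, and shares over all transcripts were not computed. Nothing is therefore read from the contrast of the 62 with the 82.

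**Figure D2:**
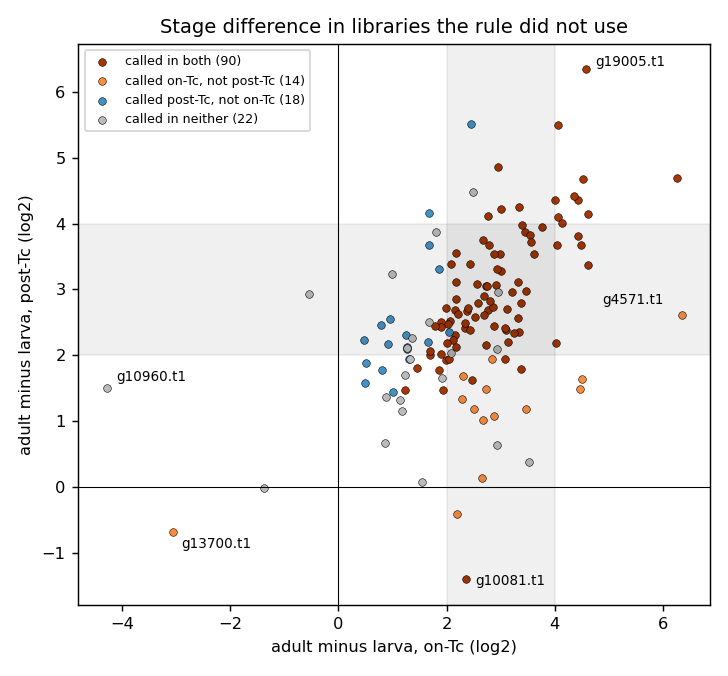
Fitted adult minus larval log2 difference of the 144 transcripts on-Tc (x axis) and post-Tc (y axis), coloured by edgeR's call at FDR 0.05; grey bands mark 4-fold to 16-fold. Most points lie in the upper right, 90 are called in both comparisons, and g10081.t1 is called in opposite directions.

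**Figure D3:**
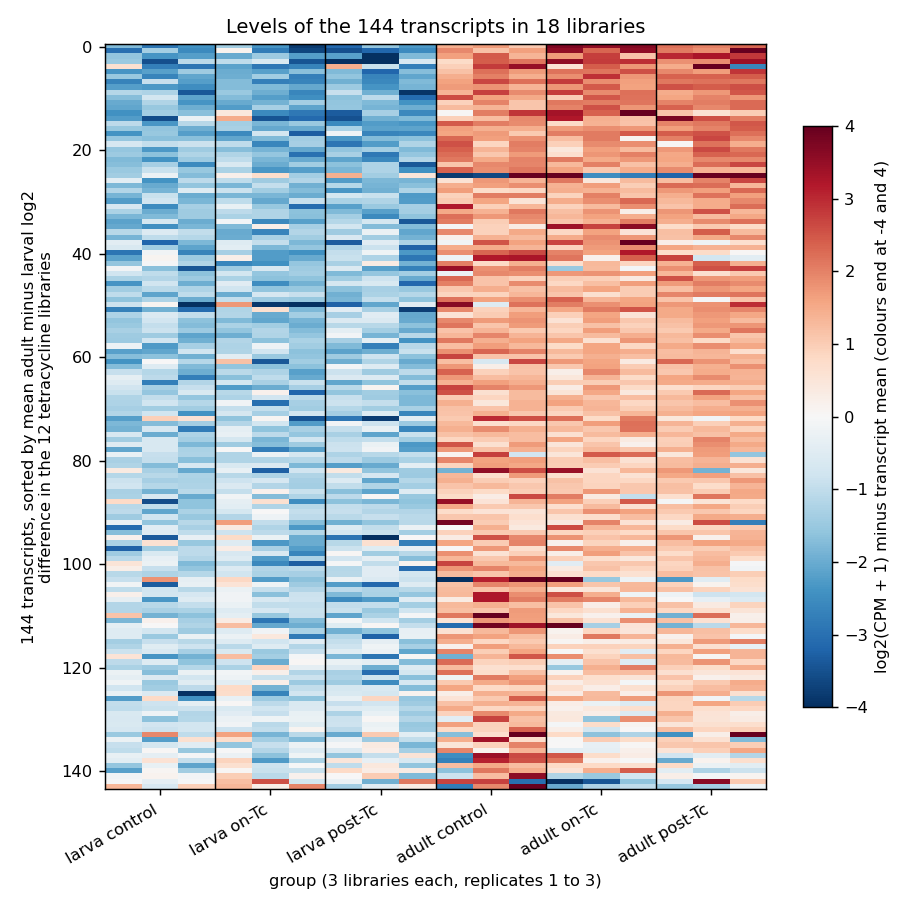
Level of each of the 144 transcripts (rows) in each of 18 libraries (columns), as log2(CPM + 1) minus the transcript's mean, with rows sorted by the mean stage difference in the tetracycline libraries. Adult columns are mostly above and larval columns mostly below the row mean, while rows near the bottom show no steady stage pattern.

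Members called in either direction numbered 104 on-Tc and 108 post-Tc, and every alternative stayed within 1.5 times of these counts. Leaving out a library compared gave 90 to 102 members on-Tc and 93 to 106 post-Tc. Over all transcripts the same fits called 2015 to 2677 on-Tc and 2278 to 3231 post-Tc, against 2944 and 3576 with every library. With larval on-Tc 1 left out, 101 members passed as higher on-Tc and the median difference was 2.80 instead of 2.48 on the log2 scale. The library names carry a digit, 1 or 2, whose meaning is not given; when it entered the fit, 103 members passed as higher on-Tc and 106 post-Tc.

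The most abundant member was g5459.t1. Its levels were 32604, 12192 and 12168 CPM in adult controls 1 to 3, 3586, 10482 and 10580 CPM on-Tc, and 9040, 13560 and 4846 CPM post-Tc. Larvae had 7083, 4200 and 1457 CPM in controls, 2328, 836 and 509 CPM on-Tc, and 4853, 2531 and 5511 CPM post-Tc. Adults were above larvae on-Tc without overlap, by 2.88 ± 0.70 (log2, SE; edgeR FDR 0.0125). Post-Tc the stages overlapped, with a log2 difference of 1.08 ± 0.66 (SE; edgeR FDR 0.235).

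The next most abundant, g17775.t1, varied among larvae by more than a factor of 10. Its larval post-Tc levels were 227, 79.8 and 1774 CPM and its adult post-Tc levels 5951, 1985 and 4600 CPM. The stages did not overlap on-Tc or post-Tc, but neither difference passed (log2 1.68 ± 0.995 on-Tc, edgeR FDR 0.248; 2.51 ± 1.02 post-Tc, edgeR FDR 0.0868; SE). Without larval on-Tc 1 the on-Tc difference was 2.38 and did not pass (edgeR FDR 0.175). Without larval post-Tc 3 the post-Tc difference was 4.70 and passed (edgeR FDR 0.00595), and with all libraries DESeq2 and limma-voom also called it (FDR 0.0231 and 0.0272).

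The largest called stage differences lay beyond the bounds of the rule, which limited the control libraries alone. On-Tc, g2461.t1 had 348, 308 and 338 CPM in adults and 9.07, 4.15 and 0.871 CPM in larvae, a difference of 6.26 ± 0.79 (log2, SE; edgeR FDR 3.2e-04). Post-Tc its adult levels were 121, 106 and 131 CPM, and the difference of 4.70 ± 0.74 also passed (SE; edgeR FDR 0.00102). The libraries of a group lay close together in adults, and the on-Tc call held without any of the 6 libraries compared.

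A slightly larger on-Tc difference, that of g4571.t1, was far less certain. It had 10.9, 41.6 and 26.0 CPM in on-Tc adults and 0.794, 0.0852 and 0.242 CPM in on-Tc larvae, a log2 difference of 6.35 ± 2.03 (SE; edgeR FDR 0.0425). It lost its call with limma-voom (FDR 0.189) and without each of the 6 libraries compared, and its post-Tc levels overlapped between stages.

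Post-Tc, the largest called differences were those of g19005.t1 and g4266.t1. The level of g19005.t1 was 376, 322 and 1747 CPM in adults and 6.75, 8.83 and 14.6 CPM in larvae, 6.34 ± 1.19 apart (log2, SE; edgeR FDR 0.00301). In g4266.t1 adults stood at 314, 136 and 94.8 CPM and larvae at 1.06, 4.99 and 5.68 CPM, 5.51 ± 1.51 apart (log2, SE; edgeR FDR 0.0192). On-Tc the stages overlapped for g4266.t1, with larval on-Tc 1 at 63.1 CPM, and without that library the difference was 6.39 and passed (edgeR FDR 0.00264). For g19005.t1 the on-Tc stages did not overlap and the difference passed (log2 4.58 ± 1.09, SE; edgeR FDR 0.0119). The on-Tc larvae of g19005.t1 stood at 97.7, 11.7 and 6.03 CPM, the highest again in larval on-Tc 1. Without larval post-Tc 1 or larval post-Tc 2 the post-Tc call of g4266.t1 was lost (edgeR FDR 0.0672 and 0.0524).

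Both members called lower in adults departed from the pattern of the controls. On-Tc, g13700.t1 had 0.915, 2.27 and 2.80 CPM in adults and 18.2, 8.05 and 28.8 CPM in larvae, a log2 difference of -3.07 ± 0.72 (SE; edgeR FDR 0.0112), a call lost with all 18 libraries in the fit (edgeR FDR 0.1002). Post-Tc the stages overlapped for it, with adults at 1.71, 1.98 and 5.82 CPM. All 6 treated adult libraries were thus below adult controls 2 and 3 and above adult control 1.

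The other, g10081.t1, was called in opposite directions. On-Tc adults had 32.6, 62.1 and 125 CPM and on-Tc larvae 22.9, 11.5 and 11.6 CPM, a difference of 2.36 ± 0.45 (log2, SE; edgeR FDR 0.00371). Post-Tc adults had 16.2, 8.81 and 11.8 CPM and post-Tc larvae 39.0, 27.5 and 28.2 CPM, a difference of -1.40 ± 0.44 (log2, SE; edgeR FDR 0.0343). The stages did not overlap in either treatment, and their order was reversed. The post-Tc call was lost in 4 of the 6 fits that left out a library compared (edgeR FDR 0.0552 to 0.115), with all 18 libraries (edgeR FDR 0.174) and with the replicate number as a block (edgeR FDR 0.0520).

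**Figure D4:**
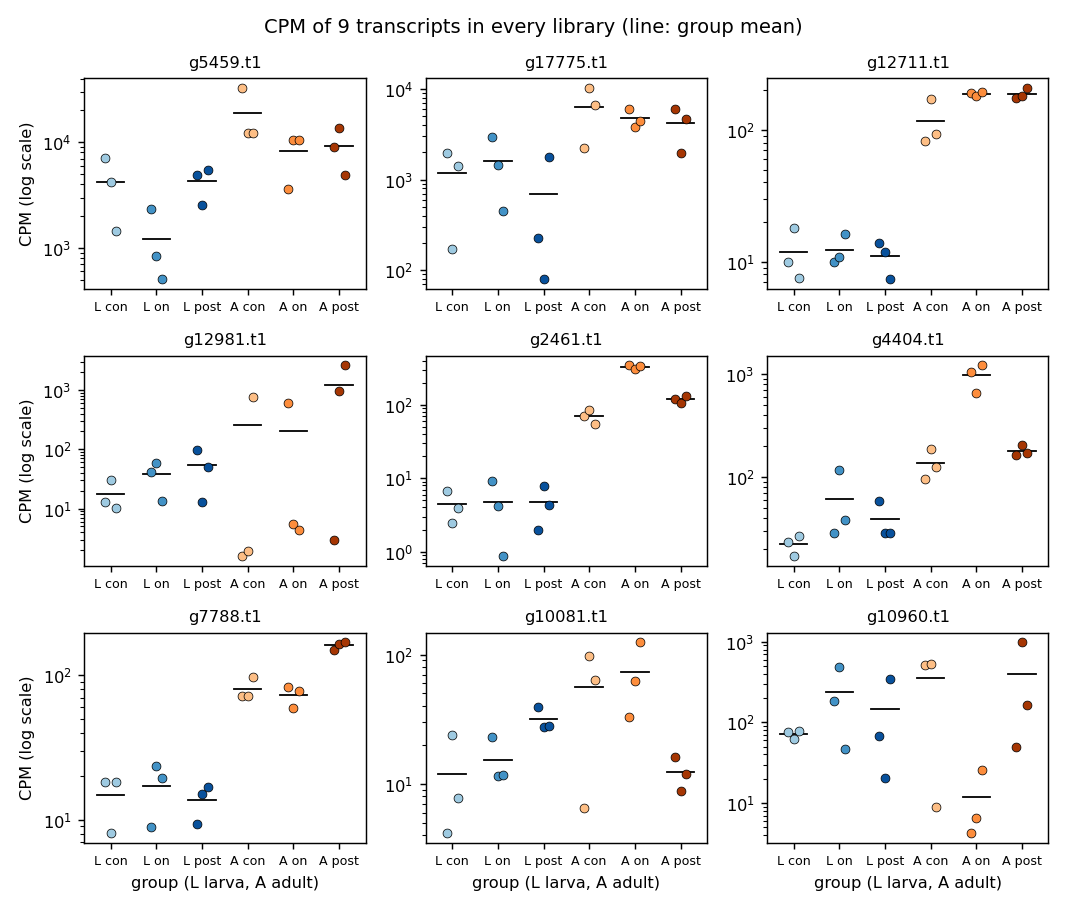
CPM (log axis) of 9 of the transcripts in every library, by group (L larva, A adult; con control, on on-Tc, post post-Tc), with a line at each group mean. In g12711.t1 the 6 treated adults lie between 174 and 209 CPM, in g12981.t1 between 2.99 and 2627 CPM, and in g10081.t1 the order of the stages is opposite on-Tc and post-Tc.

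Whether the stage difference itself differed between the treatments was tested as an interaction in the same 12 libraries. None of the 144 passed edgeR's test, where 1 of 11793 transcripts did (0.00848%). At an unadjusted p under 0.05 there were 15 members (10.4%), against 10.1% of all transcripts tested; DESeq2 called 5 members (3.47%), where it called 1.37% of all, and limma-voom called 0. For g10081.t1 the interaction was -3.76 ± 0.63 (log2, SE; edgeR FDR 0.324), and DESeq2 called it (FDR 1.1e-04). The median over members was 0.18 on the log2 scale. With a library left out it ranged from -0.05, without larval on-Tc 1, to 0.36, without larval on-Tc 3 or larval post-Tc 1. The typical 95% interval, unadjusted for the number of transcripts, extended 2.94-fold to either side. Smaller differences between the treatments were thus not detectable in a typical transcript. Larger ones could also miss the FDR bound, as that of g10081.t1 did, so a missing call does not exclude them.

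Within adults, post-Tc and on-Tc libraries were compared without using the controls as an arm. Of the 144, 1 passed edgeR's test as higher post-Tc, where 0.376% of 11435 transcripts did, and 1 as lower, where 0.0612% did. The level of g7788.t1 was 150, 164 and 170 CPM post-Tc and 82.5, 59.1 and 77.9 CPM on-Tc, with adult controls at 71.7, 71.7 and 96.7 CPM. Every post-Tc library was above the other 6 adult libraries, and the difference was 1.23 ± 0.19 (log2, SE; edgeR FDR 0.0456). That of g4404.t1 was 164, 205 and 170 CPM post-Tc against 1040, 647 and 1216 CPM on-Tc and 96.0, 187 and 124 CPM in controls. The on-Tc libraries stood above all other adult libraries, and the level fell by 2.32 on the log2 scale from on-Tc to post-Tc (SE 0.31; edgeR FDR 0.0447).

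Both calls were marginal. Both were lost when library totals replaced TMM factors, when no filter on low counts was set, when the fit held only the 6 or all 18 libraries, and when the digit of the library names or the replicate number (edgeR FDR 0.149 and 0.122) was a term. Leaving out any of the 6 libraries compared also ended them, except that g4404.t1 kept its call without adult on-Tc 2. DESeq2 and limma-voom called both. DESeq2 called 19 members (13.2%) in this comparison, where it called 11.4% of all transcripts. Neither reversed direction. Both passed as higher in adults than in larvae in each treatment, with g7788.t1 at 9.35 to 16.7 CPM in post-Tc larvae and g4404.t1 at 28.6 to 118 CPM in on-Tc larvae.

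The remaining members passed in neither direction. Post-Tc and on-Tc adults did not overlap for 28 members as higher and 17 as lower, where 13.7% and 14.5% of all transcripts did so. At an unadjusted p under 0.05 there were 32 members (22.2%), against 21.5% of all. The lowest adult value was in on-Tc 1 for 34 members (23.6%, against 9.81% of transcripts with enough counts). It was in on-Tc 3 for 26 (18.1%, against 11.3%). That count ran over all adult libraries, including the controls that the rule required to be high on average, so these shares are not independent of the rule. The fitted difference was positive for 93 members (64.6%), against 54.1% of all, with a median of 0.28 on the log2 scale against 0.06. Under scaling by library totals these medians were 0.19 and -0.02. Leaving out on-Tc 1 gave a members' median of 0.26 and leaving out on-Tc 3 gave 0.18. It was lowest, at 0.16, when post-Tc 2 was dropped and highest, at 0.44, when on-Tc 2 was dropped. The typical 95% interval extended 1.88-fold to either side.

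**Figure D5:**
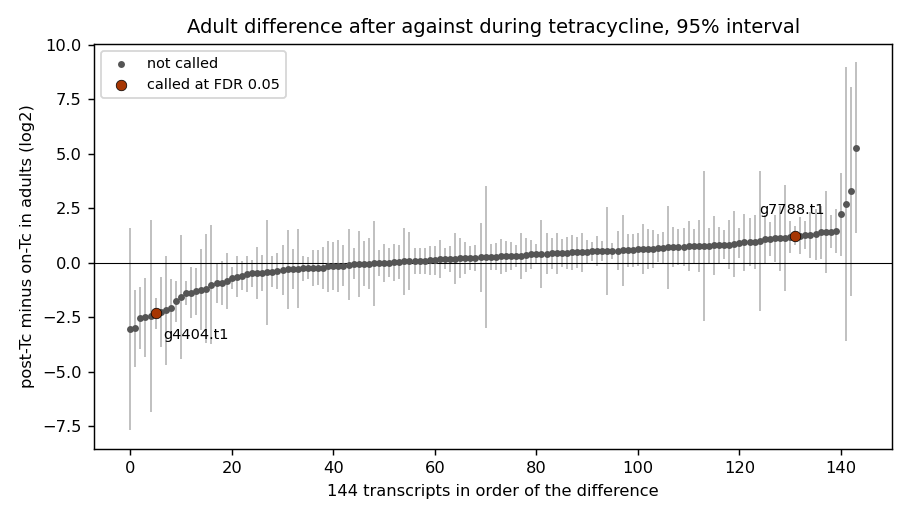
Fitted post-Tc minus on-Tc log2 difference in adults (y axis) with its 95% interval (grey line) for the 144 transcripts in order of the difference (x axis). The called transcripts are g4404.t1 at -2.32 and g7788.t1 at 1.23; 93 of the 144 lie above 0.

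Larvae showed no called difference between post-Tc and on-Tc. Of the 144, 0 passed edgeR's test, as for all 11584 transcripts (0%), and DESeq2, which called 0.19% of all, and limma-voom also called 0 members. There were 8 members (5.56%) at an unadjusted p under 0.05, against 5.33% of all. The groups did not overlap for 2 members as higher and 2 as lower, where 2.05% and 8.62% of all did so. The median difference was -0.00 on the log2 scale, 0.26 without larval on-Tc 1 and -0.15 without larval on-Tc 3. With library totals it was -0.20, where the median of all transcripts was -0.19. The interval for a single transcript extended 2.34-fold to either side.

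Comparisons with the controls are described only, since the control libraries chose the members. On-Tc against control in adults, the fitted difference was positive for 43 members (29.9%), against 46.8% of all transcripts, with a median of -0.34 on the log2 scale. Post-Tc against control it was positive for 74 members (51.4%), with a median of 0.00. Among the members, g2461.t1 and g4404.t1 were called higher on-Tc than in controls by edgeR, in a comparison where 0.0525% of transcripts were; nothing is read from that count. Post-Tc against control, 0 members and 0% of transcripts were called. At an unadjusted edgeR p under 0.05 there were 27 members (18.75%) and 750 of all 11435 transcripts (6.56%). Nothing is read from these counts either, since the controls chose the members.

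Spread within groups was described for the members and for all abundant transcripts, without a test. The median SD of log2(CPM + 1) over the 3 libraries was 0.45 in on-Tc adults and 0.38 in post-Tc adults, against 0.28 in each for all transcripts at 50 CPM or more in that group. In larvae it was 0.58 on-Tc and 0.67 post-Tc, against 0.37 and 0.41. Many members lie below 50 CPM in larvae and some in adults, so levels are not matched in either stage. Members with a group mean of at least 50 CPM numbered 116 in on-Tc adults and 120 in post-Tc adults. In larvae they numbered 42 on-Tc and 43 post-Tc. The highest library was at least 4 times the lowest for 17 members (11.8%) in on-Tc adults and 16 (11.1%) in post-Tc adults, against 8.68% and 6.23% of the abundant transcripts. In larvae it was so for 44 members (30.6%) on-Tc and 45 (31.3%) post-Tc, against 7.82% and 12.2%.

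Among treated adults the members ranged from nearly constant to switching. Over the 6 treated adult libraries, g12711.t1 was the steadiest, from 174 to 209 CPM, with larvae of the same treatments at 7.39 to 16.1 CPM. Its stage difference was 4.06 ± 0.30 on-Tc (log2, SE; edgeR FDR 8.8e-06) and 4.10 ± 0.30 post-Tc (edgeR FDR 7.3e-06). Next came g9597.t1, from 147 to 186 CPM in treated adults, with a stage difference of 3.01 ± 0.35 on-Tc (edgeR FDR 1.9e-04). These were abundant transcripts in which adult libraries of both treatments were alike and far from the larvae. The adult controls lay outside the range of treated adults in each. They were lower for g12711.t1, at 83.3, 172 and 93.2 CPM, and higher for g9597.t1, at 281, 200 and 231 CPM.

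At the other end, g12981.t1 had 595, 5.51 and 4.36 CPM in on-Tc adults and 2.99, 959 and 2627 CPM in post-Tc adults. High and low adult libraries occurred in every group, controls included, and treated larvae stood between at 13.1 to 96.8 CPM. Likewise g10960.t1 had 4.24, 6.57 and 25.4 CPM in on-Tc adults and 49.5, 988 and 166 CPM in post-Tc adults. The on-Tc adults lay below the on-Tc larvae, at 47.0 to 480 CPM, without passing (log2 -4.28 ± 1.46, SE; edgeR FDR 0.0545). It passed when library totals replaced TMM factors (edgeR FDR 0.0476), when the fit held only those 6 libraries (edgeR FDR 0.0282) and with DESeq2 (FDR 0.00129). In adult controls it stood at 520, 537 and 8.87 CPM, so a low adult level was not limited to on-Tc.

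All 144 members were the first listed transcript of their gene number. A single member, g16776.t1, had another listed transcript, which had 0 counts in every library. Of all listed transcripts, at any level, 10.1% share a gene number. No such share, nor that of first listed transcripts, was computed among abundant transcripts, so neither is read as a trait of the 144. Consecutive gene numbers are used here only as labels, since whether they follow the genome is not given in the sources used here. By number, 15 members lay next to another member, in 7 runs, the longest being g2450.t1, g2451.t1 and g2452.t1. Neighbours by number were at least 4-fold higher in treated adults in 35 of 215 cases (16.3%), and in 25 of 199 (12.6%) without neighbours that are members. For all transcripts with at least 10 counts in 3 tetracycline libraries, with no neighbour left out, it was 7.92%. These shares are not matched for level, and no share over all transcripts was computed for the 15 adjacent members. Neither is read as a trait of the 144.

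Levels differed between the members of that run. In on-Tc adults g2450.t1 stood at 46.8, 364 and 561 CPM, g2451.t1 at 30.5, 6.73 and 85.0 CPM, and g2452.t1 at 467, 256 and 1625 CPM. Only g2452.t1 passed for the on-Tc stage difference (log2 4.50 ± 0.84, SE; edgeR FDR 0.00319), and 0 of the run passed post-Tc. With only the 6 libraries compared, g2450.t1 and g2451.t1 passed post-Tc (edgeR FDR 0.0242 and 0.0256), and DESeq2 called g2450.t1 (FDR 0.0368). All were highest in on-Tc adult 3 among the on-Tc adults, and the adult post-Tc levels of g2452.t1, at 87.5, 63.9 and 117 CPM, lay below its on-Tc levels without passing (log2 -3.003 ± 0.77, SE; edgeR FDR 0.0943; DESeq2 FDR 7.7e-04).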

How the data were processed

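The authors deposited raw counts per predicted transcript for 18 midgut libraries, judged from whole numbers with unequal column sums. The submitters' processing notes list STAR, featureCounts, Trimmomatic and DESeq2 with no role; for versions, genome build, annotation and strand the entry is: not given in the sources used here. Columns were matched to samples by library name, groups came from sample titles, and 0 columns lacked a sample. Within groups no library was a copy of another: the chi-square of a pair, divided by its degrees of freedom, was 271 to 1261. Pairs from different groups were not compared. Among counts from 1 to 20 even values prevailed, so halved counts were an alternative.

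CPM values use column totals. Tests used edgeR 4.0.16 in R 4.3.3 (filterByExpr with minimum count 10 and total 15, TMM, glmQLFit, glmQLFTest), with Benjamini-Hochberg adjustment over all transcripts tested. All 144 members passed each filter. Stage differences and their interaction were fitted on the 12 tetracycline libraries, and post-Tc against on-Tc on the 9 libraries of a stage, where controls also enter the filter, scaling and spread. SE and 95% intervals derive from the F statistic. The fits were tested on simulated counts.

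The members, tests and lists were chosen with earlier results of these data known. Named transcripts are the 2 most abundant members, those nearest each bound, up to 2 called higher and 2 lower per comparison without overlap of groups and with the largest change, the 2 steadiest and 2 most variable members in treated adults, and the longest run of gene numbers. Other transcripts named were picked after their values were seen. Gene lists and marker lists by name could not be used. Also tried were limma-voom (limma 3.58.1), DESeq2 1.42.0, other scalings and filters, a 2-fold threshold, halved counts, covariates, other sets of libraries and each library left out. The separation and ratio counts without larval on-Tc 1 were added after seeing the data. Figures used matplotlib 3.10.9.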

Additional observations from a re-analysis of the deposited data

Results flagged for a closer look

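For g10081.t1 the stages did not overlap in either treatment and their order was opposite. Adults were above larvae on-Tc by 2.36 on the log2 scale and below them post-Tc, at -1.40. The test of the difference between the treatments gave -3.76 ± 0.63 (log2, SE), which did not pass (edgeR FDR 0.324; DESeq2 called it, FDR 1.1e-04). In controls the stages overlapped, with adults at 6.45, 98.2 and 63.6 CPM and larvae at 4.16, 23.7 and 7.80 CPM.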

How the results depend on the processing

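The counts of members called in either direction for the stage difference, reported as 104 on-Tc and 108 post-Tc, stayed within 1.5 times of the reported ones under every alternative run, from 101 to 111 on-Tc and from 105 to 120 post-Tc; with a library left out they ranged from 90 to 102 and from 93 to 106. The number of transcripts meeting the rule was 132 with TMM-scaled totals (127 shared), 142 with group medians (110 shared) and 144 with halved counts, and 128 to 148 with a control library left out. For the interaction, DESeq2 called 5 members (3.47%, against 1.37% of all transcripts) where edgeR called 0, and 0 were called under the other alternatives and with any library left out. For adult post-Tc against on-Tc, DESeq2 called 19 members (10 higher, 9 lower; 13.2%, against 11.4% of all transcripts) where edgeR called 2; library totals, no filter on low counts, the library-name digit, all 18 libraries and only the 6 libraries compared gave 0, and leaving out a library gave 0 to 1. Larval post-Tc against on-Tc gave 0 throughout. With the replicate number as a block, edgeR called 103, 105, 0, 0 and 0 members in these 5 comparisons, in the order given. Deviations of same-numbered libraries had correlations of -0.36 to 0.12, and not every library correlated best with its own number. With 3 libraries per group these correlations cannot tell whether same-numbered libraries were handled together. TMM moved the median of all transcripts against library totals by 0.12 on the log2 scale for the on-Tc stage difference, by -0.12 for the interaction and by 0.19 for larval post-Tc against on-Tc. Of the 17 transcripts followed through the alternatives, 4 reversed a difference that had not passed. For g12981.t1 the on-Tc stage difference was -0.12 with limma-voom and ranged from -2.84 (without adult on-Tc 1) to 3.05 with a library left out, and for g10960.t1 the post-Tc one ranged from -0.50 (without adult post-Tc 2) to 3.24. For adult post-Tc against on-Tc, where they stood at -0.08 and -0.02, g2450.t1 gave 0.35 with limma-voom, 0.037 with the replicate block and -0.60 to 0.44 with a library left out, and g2451.t1 gave 0.51, 0.11, -0.52 to 0.997, and 0.0092 with a minimum of 1 CPM. With 3 libraries per group, single transcripts had 95% intervals of 1.88-fold to 2.94-fold to either side in the median.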
